A study of Mus musculus with 8 samples.

Results

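Coagulation and fibrinolysis genes were measured by single-cell RNA-seq in the injured mouse cortex. The set holds 9 genes of the 21848 in the deposited gene table, picked out in the files by symbol: the plasminogen activators Plat and Plau, the urokinase receptor Plaur, the protease inhibitors Serpine2 and Serpinb2, and the coagulation genes F3, F10, F13a1 and Thbd. Photothrombotic stroke (PT), in which light and a photosensitive dye clot the vessels of a cortical patch, was induced in the right sensorimotor cortex of 8 mice, and the lesion with its rim was dissociated 6 days later. Ancrod, a snake-venom enzyme that removes fibrinogen from plasma, was given to 4 mice at 2.4 U per day (2.0 mg/kg), and the other 4 mice received saline. Both were delivered by an osmotic minipump implanted 2 days before the injury and running until the end. All mice of both groups therefore carried the injury and a pump, and uninjured cortex was not analysed here. The labels name the strain as Bl/J6 and every mouse as female, while the study's methods describe C57BL/6N mice of both sexes aged 8 to 12 weeks. Fibrinogen is a plasma protein made in the liver, so its depletion leaves no transcript to check in these libraries. The meninges were removed before dissociation, no cell type was enriched, and myelin was depleted with beads.

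Each mouse gave 1 library of unique molecular identifiers (UMIs), which count captured transcript ends. Droplets with at least 2000 UMIs and under 20% mitochondrial UMIs numbered 46216, and 44072 cells remained after 2144 likely doublets were removed. Total UMIs ranged from 97861434 to 122758649 in the saline libraries and from 126682918 to 142139441 in the ancrod libraries, so the ancrod libraries all held more UMIs. Median UMIs per kept cell overlapped, at 10495 to 14181 in saline and 13613 to 17425 in ancrod libraries. Any pair of libraries shared 3 to 15 cell barcodes. Replicates 1 to 3 of each group were injured and sequenced as batch 1 and replicate 4 of each group as batch 2. Clusters, built without the 9 genes or 40 further genes of the pathway, were named from marker lists, and every class name below means cells like that type. The study's own cell annotation was not used, so a difference from its classes may come from the rebuilt names. The 14 classes tested held from 173 oligodendrocyte precursor-like cells to 16967 microglia-like cells, and 6247 cells stayed unnamed. The single cluster named monocyte-like scored higher on the inflammatory macrophage markers (0.634) than on its own (0.594), and took its name from its leading genes. Endothelial-like cells made up 20.9% ± 1.70 (SD, n = 4 mice) of the cells under saline and 11.2% ± 4.24 under ancrod, and fibroblast-like cells 2.74% ± 1.52 and 6.01% ± 3.51.

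Plasmin, the protease that dissolves fibrin, is released from plasminogen by the tissue-type activator (Plat) or the urokinase-type activator (Plau), and urokinase is held at the cell surface by its receptor (Plaur). Serpins such as nexin-1 (Serpine2) and plasminogen activator inhibitor 2 (Serpinb2) block these activators, and nexin-1 blocks thrombin as well. Clotting starts when tissue factor (F3) on cells outside the vessel meets plasma factor VII and activates factor X (F10). Factor XIII (its A subunit is F13a1) cross-links the fibrin that forms, and thrombomodulin (Thbd) on endothelium turns thrombin towards the anticoagulant protein C.

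The 9 genes differed in the cell classes that held them. Plat was highest in the vessel wall and fibroblasts, Plau in macrophages, monocytes and microglia, Plaur in monocytes and neutrophils, F3 in astrocytes, F10 in monocytes, F13a1 in macrophages and Thbd in endothelium, while Serpine2 spanned glia, fibroblasts and mural cells and Serpinb2 was nearly absent. Levels are given in CPM (counts per 1000000). These are the UMIs of a gene scaled to the UMIs of all cells of a class in 1 mouse. They were not divided by transcript length, since 1 end is counted per molecule. Intronic reads were counted as well, and their part in the levels was not tested. Differences between classes are descriptions, and classes are called separate only where the lowest mouse of the higher class lay above the highest mouse of the lower class.

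**Figure D1:**
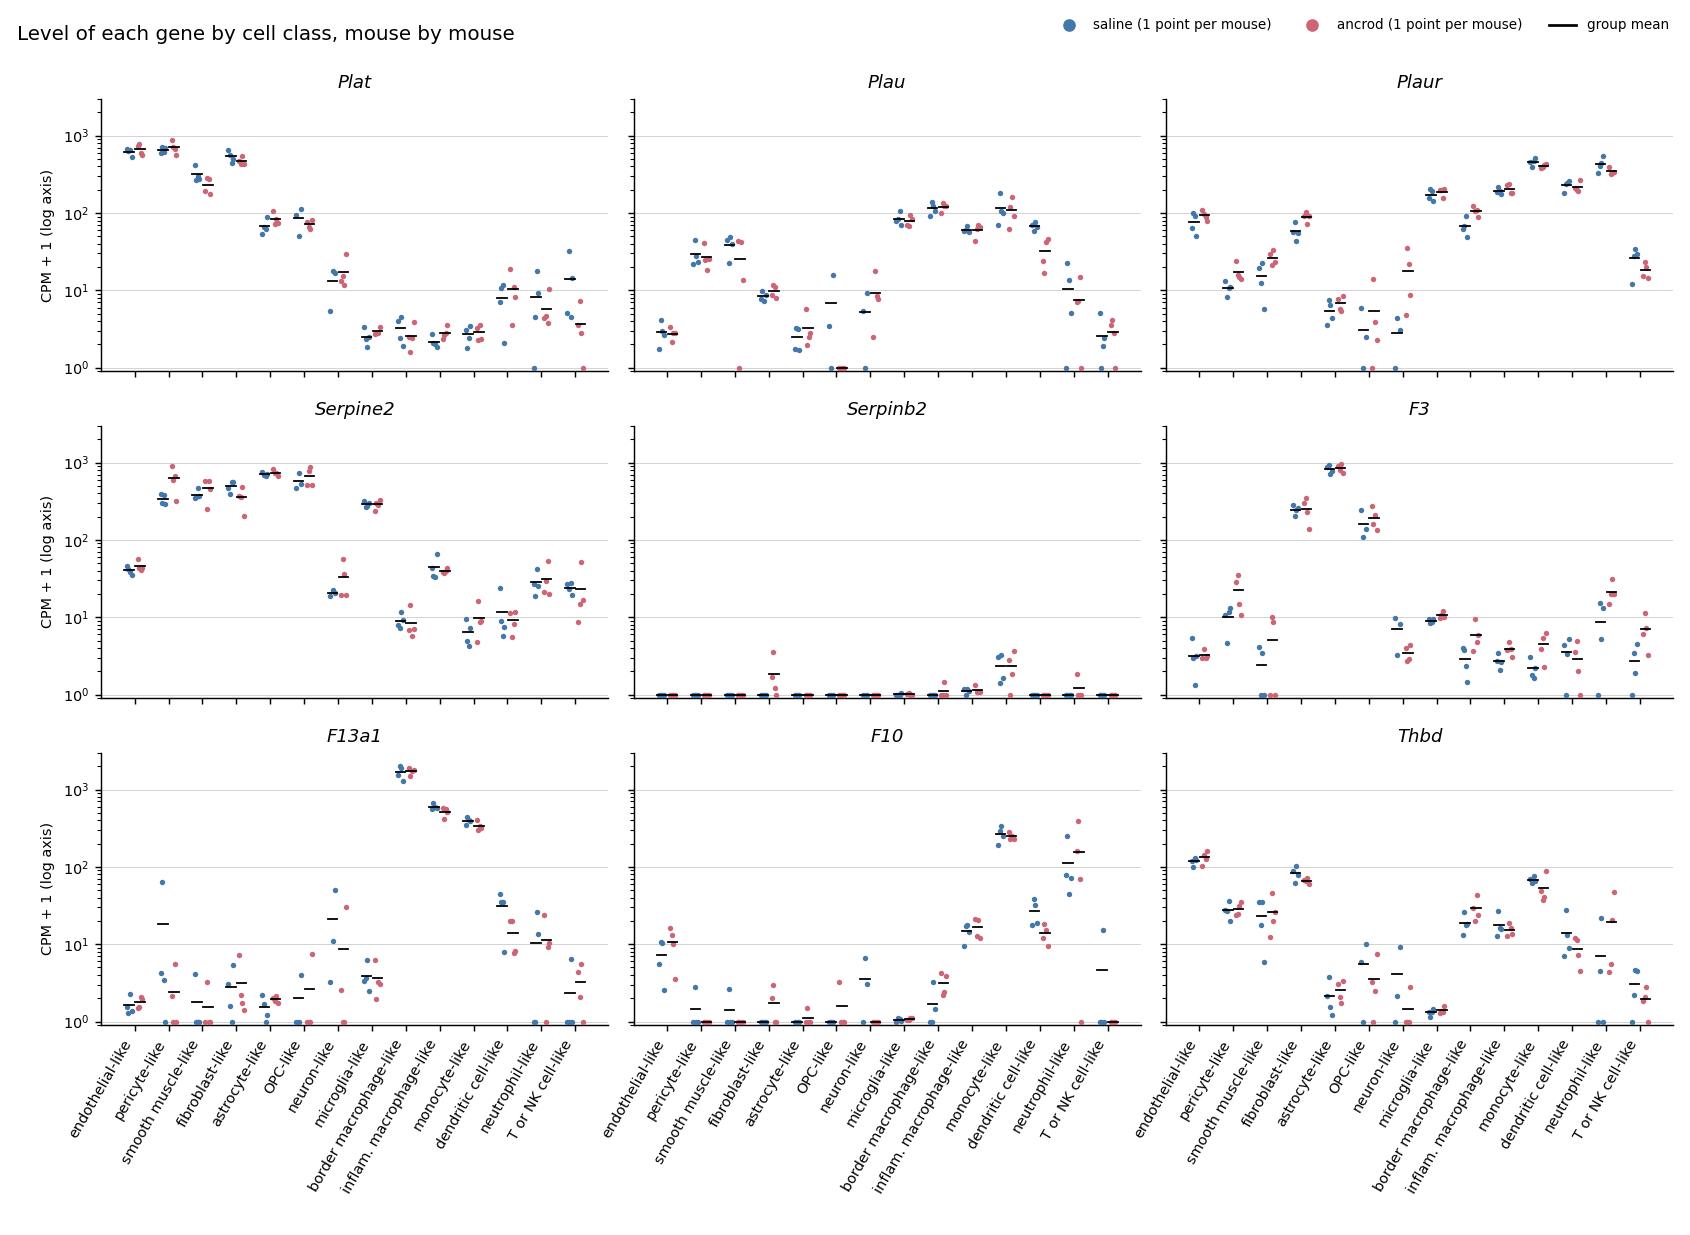
Level of each gene in 14 cell classes, 1 panel per gene, as CPM + 1 on a log axis with 1 point per mouse (saline blue, ancrod red) and a bar for the group mean, for mice with at least 10 cells of the class. The highest points are those of F13a1 in border-associated macrophage-like cells (1303 to 1989 CPM), F3 peaks in astrocyte-like cells (704 to 972 CPM), and Serpinb2 stays near the bottom of its panel in every class.

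Plat (GRCm39 chromosome 8, 23247709 to 23272871, plus strand) had its highest class mean in pericyte-like cells, at 682.5 ± 98.9 CPM (SD, n = 8 mice, range 567 to 885). Endothelial-like cells followed at 646 ± 88.1 CPM, and the ranges of the pair overlapped, with the pericyte value higher in 5 of 8 mice. Fibroblast-like cells held 505 ± 80.5 CPM, below the endothelial value in 8 of 8 mice. Vascular smooth muscle-like cells formed a separate lower step at 273 ± 74.4 CPM, and a further step led to oligodendrocyte precursor-like cells at 76.7 ± 20.6 CPM (n = 7) and astrocyte-like cells at 74.8 ± 16.5 CPM. Thinned to 2000 UMIs per cell, the astrocyte-like level was 42.9 CPM and the precursor-like level 75.8 CPM. Microglia, macrophages and monocytes had between 1.51 and 1.90 CPM. With each cell thinned to 2000 UMIs, 65.5% of pericyte-like and 59.8% of endothelial-like cells held a Plat UMI, against 0.43% of microglia-like cells, which serve as the background from free RNA. Unthinned shares were 87.9%, 88.1% and 2.72%, at median depths of 5514, 10093 and 15425 UMIs per cell. Droplets with under 100 UMIs, which hold only free RNA, contained Plat at a median of 112 CPM.

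Levels of Plat also differed within lineages. In reactive astrocyte-like cells (marked by Gfap, Vim and Serpina3n) Plat reached 215 ± 39.2 CPM, whereas homeostatic astrocyte-like cells had 29.0 ± 9.17 CPM, and no mouse overlapped. Arterial, capillary and venous endothelial-like cells held 722, 723 and 701 CPM, with overlapping ranges. Each of these means was above the 682.5 CPM of pericyte-like cells. The endothelial-like class also held subclusters left as mixed, several of them with markers of pericytes, fibroblasts, astrocytes or microglia. Tip endothelial-like cells, the leading cells of sprouting vessels, had 473 ± 119 CPM and lay below the capillary cells of the same mouse in 8 of 8 mice. Because endothelial cells were abundant, they contained 50.7% of the 150869 Plat UMIs of all kept cells and fibroblast-like cells 28.2%, while the high level of pericyte-like cells added 3.64%. The endothelial share averaged 62.5% under saline and 41.5% under ancrod, and the fibroblast share 19.3% and 34.4%, alongside the group means of the cell shares above.

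Plau (chromosome 14, 20886722 to 20893453, plus strand) was highest in border-associated macrophage-like cells at 117 ± 16.8 CPM and in monocyte-like cells at 111 ± 41.5 CPM, whose ranges overlapped. Microglia-like cells had 80.6 ± 13 CPM and inflammatory macrophage-like cells 59.6 ± 8.28 CPM, the former being higher in 8 of 8 mice. Pericyte-like cells, at 27.3 ± 9.28 CPM, stood apart from fibroblast-like cells at 8.09 ± 1.55 CPM, and neutrophil-like cells, although myeloid, had 8.01 ± 7.40 CPM. Endothelial-like cells held only 1.82 ± 0.716 CPM. Thinned cells with a Plau UMI made up 15.7% of border-associated macrophage-like and 12% of microglia-like cells, against 0.281% of astrocyte-like cells, and 59.5%, 43.6% and 2.28% before thinning, at median depths of 21507, 15425 and 15643 UMIs. Microglia contributed 66.4% of all 36691 Plau UMIs by their number.

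Within microglia, the injury-responsive cells (Spp1, Lpl, Gpnmb) had 110 ± 19.8 CPM of Plau and the homeostatic cells (P2ry12, Tmem119) 67.3 ± 6.44 CPM, with no overlap between mice. The cluster led by Olr1, Lpl and Tnf reached 150 ± 34.8 CPM, while the cluster led by Cd5l, Igf1 and Ctsd, which also carries injury genes, held 66.4 ± 10.6 CPM. The homeostatic cluster led by P3h2 and P2ry12 had the lowest level of the clusters compared, 48.3 ± 7.04 CPM.

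Plaur (chromosome 7, 24161875 to 24175394, plus strand), which anchors urokinase at the membrane, was highest in monocyte-like cells at 432 ± 47.6 CPM and neutrophil-like cells at 388 ± 79.4 CPM. These did not separate from each other, and both separated from dendritic cell-like cells at 222 ± 30.6 CPM. Inflammatory macrophage-like and microglia-like cells followed at 199 ± 23.2 and 179 ± 25.6 CPM. Border-associated macrophage-like cells, the highest class for Plau, had a separate lower Plaur level of 86.2 ± 25.5 CPM, close to endothelial-like cells at 84.4 ± 20.4 CPM. After thinning, 55.7% of monocyte-like and 38.2% of neutrophil-like cells held a Plaur UMI and 0.681% of astrocyte-like cells did. Before thinning the shares were 96.5%, 59.2% and 4.49%, at median depths of 16466.5, 4855 and 15643 UMIs.

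Within microglia, Plaur stood at 292 ± 22.9 CPM in the cluster led by Il1a and Tnf, where Plau was 88.4 CPM, and at 96.9 ± 20.9 CPM in the cluster led by P3h2 and P2ry12, with no overlap. The injury-responsive clusters led by Olr1 and by Cd5l held 253 ± 30.8 and 118 ± 17.7 CPM of Plaur, so of these 4 clusters the P3h2-led one had the lowest mean of both genes, while the highest was the Olr1-led one for Plau and the Il1a-led one for Plaur. Pooled by marker score, Plaur was 159 ± 21.0 CPM in injury-responsive and 188 ± 29.1 CPM in homeostatic microglia, and that score placed the Il1a-led cluster among the homeostatic cells. In endothelium Plaur ran from 63.0 ± 20.1 CPM in arterial over 81.4 ± 17.01 in capillary and 99.1 ± 22.1 in venous to 118 ± 19.1 CPM in tip cells. The venous and tip levels were each above the capillary level of the same mouse in 8 of 8 mice, although the ranges overlapped.

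**Figure D2:**
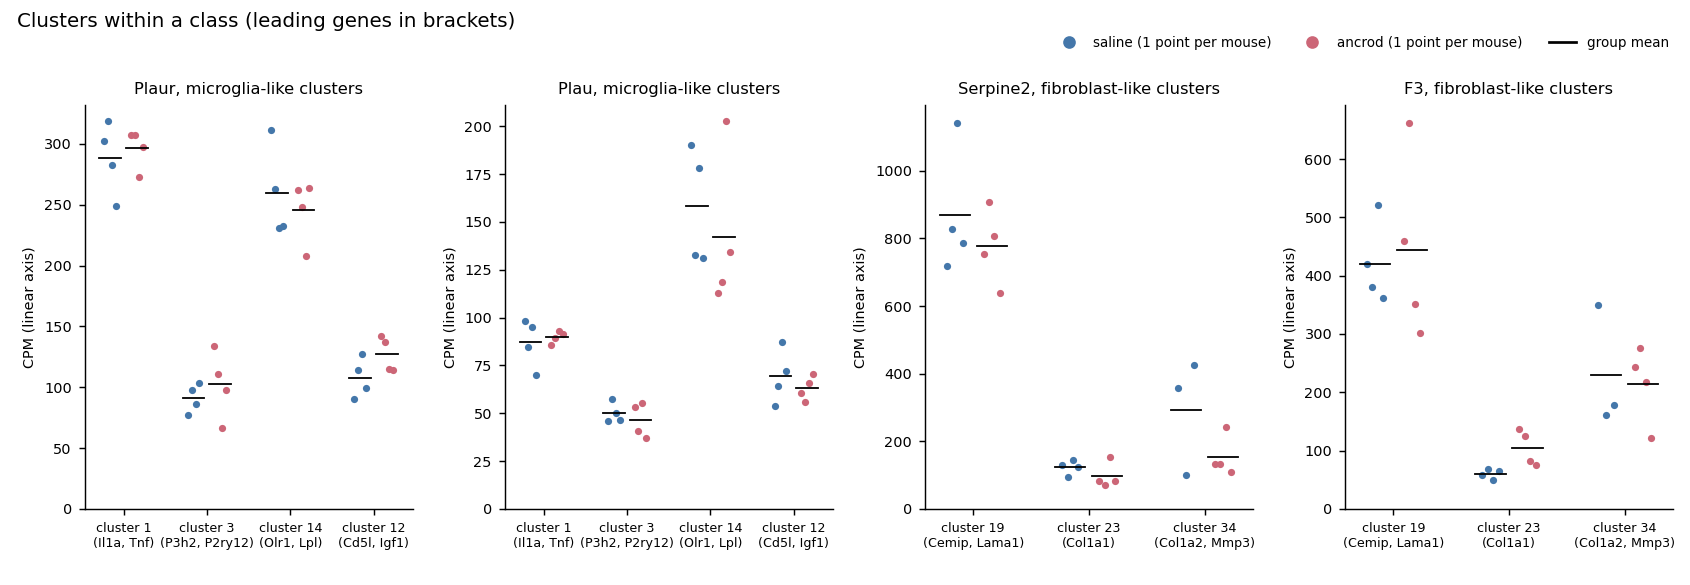
Levels of 4 genes in clusters or states of a single lineage, in CPM with 1 point per mouse and bars for the mean. The groups of points for Plaur in the microglial clusters led by Il1a and by P3h2, and for Serpine2 in the fibroblast clusters led by Cemip and by Col1a1, do not overlap.

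The promoter of Plaur is shown because this receptor was present in every myeloid class and in vessels. RefSeq entries on GRCm38.p6 (250 bases before to 50 bases after the start) were found for 6 of the 9 genes, with 8 entries in all. Capitals mark matches on either strand to 4 motifs searched in every window: AP-1 (TGANTCA, in 7.81% of 32851 promoters), ETS (GGAAGT, 23.8%), the GC box (GGGCGG, 35.7%) and the TATA box (TATAAA, 13.6%). The window of Plaur, chr7:24462233-24462532 on the plus strand, held 1 AP-1 match beginning 69 bases upstream of the start and 3 GC boxes that abut or overlap. A match describes letters only.
Plaur: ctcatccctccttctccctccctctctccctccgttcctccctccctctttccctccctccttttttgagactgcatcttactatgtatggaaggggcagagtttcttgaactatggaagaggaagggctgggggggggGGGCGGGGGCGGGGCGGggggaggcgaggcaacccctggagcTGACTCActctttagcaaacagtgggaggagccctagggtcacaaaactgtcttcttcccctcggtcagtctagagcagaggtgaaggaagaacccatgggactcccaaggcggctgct

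Serpine2 (chromosome 1, 79763323 to 79839144, minus strand) was high in glia, fibroblasts and mural cells. Astrocyte-like cells held 722 ± 45.8 CPM and oligodendrocyte precursor-like cells 627 ± 161 CPM (n = 7). Pericyte-like cells (483.5 ± 223 CPM), fibroblast-like cells (427 ± 121 CPM) and vascular smooth muscle-like cells (425 ± 114 CPM) overlapped each other and the precursor-like cells. The fibroblast-like and smooth muscle-like cells of every mouse lay below the lowest astrocyte-like value. With cells thinned to 2000 UMIs the pericyte-like level was 264 CPM, below the 273 CPM of microglia-like cells. A minority of deep cells held most of the Serpine2 UMIs of the pericytes, as given with the comparison of the groups. Microglia-like cells had 289 ± 31.3 CPM, and a 6.79-fold step separated them from endothelial-like cells at 42.5 ± 6.50 CPM. Monocyte-like cells were lowest, at 7.06 ± 3.83 CPM, and inflammatory macrophage-like cells stood apart above them at 40.9 ± 10.4 CPM. Thinned shares of cells with a UMI were 66.9% in astrocyte-like and 38.6% in microglia-like cells, against 0.891% in monocyte-like cells. Before thinning they were 94.7%, 88.2% and 6.73%, at median depths of 15643, 15425 and 16466.5 UMIs. The free-RNA droplets held Serpine2 at a median of 226 CPM, the highest of the set.

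Among the lineages whose clusters or states were compared, fibroblast-like cells were the most divided for Serpine2. The cluster led by Cemip, Lama1 and Col18a1 (877 cells) held 823 ± 151 CPM and the cluster led by Col1a1, Col1a2 and Col3a1 (659 cells) 110 ± 31.7 CPM, with no overlap in 8 mice. F3 followed the same split, at 432 and 82.5 CPM, as did Plau at a much lower level, 12.8 and 4.401 CPM. Plaur went the other way, 54.6 against 90.4 CPM, and was higher in the collagen-led cluster in 7 of 8 mice. Injury-responsive microglia had more Serpine2 than homeostatic microglia in 8 of 8 mice, at 353 ± 51.2 against 262 ± 28.5 CPM.

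Serpinb2 (chromosome 1, 107428593 to 107463208, plus strand) gave 74 UMIs in 44072 cells, and no class exceeded a mean of 1.33 CPM. Monocyte-like cells held 29 of these UMIs, fibroblast-like cells 27, inflammatory macrophage-like cells 12 and microglia-like cells 4. The fibroblast UMIs came from ancrod mice 1, 2 and 3, with 9, 13 and 5 UMIs, and the other 5 mice had 0. They lay in 3 of 1900 fibroblast-like cells (0.158%), 1 cell in each of these mice. In 8 of the 14 classes no UMI was seen, which allows at most 0.0251 to 0.938 CPM in a class summed over mice. These limits take 3 counts as the floor and cover counting error only. The gene passed the low-count filter in 0 classes, so it was not tested.

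F3 (chromosome 3, 121516610 to 121528820, plus strand), the cell-surface starter of clotting, was highest in astrocyte-like cells. They held 834 ± 99.1 CPM (range 704 to 972), 3.34-fold above fibroblast-like cells at 250 ± 63.3 CPM and with no overlap. Oligodendrocyte precursor-like cells had 179 ± 61.0 CPM (n = 7), and a further 11.8-fold step led to pericyte-like cells at 15.1 ± 10.2 CPM. Endothelial-like cells, which line the blood, held 2.23 ± 1.11 CPM. Of thinned astrocyte-like cells 76.8% had an F3 UMI, against 0.469% of endothelial-like cells, and the unthinned shares were 97.8% and 2.87% at median depths of 15643 and 10093 UMIs. Astrocytes contributed 50.0% of the 83690 F3 UMIs, fibroblast-like cells 23.2% and unnamed cells 21.7%.

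The F3 promoter is shown as that of the gene with the clearest astrocyte level. Its window, chr3:121723287-121723586 on the plus strand, held AP-1 matches beginning 146 and 135 bases upstream of the start, 3 GC boxes and a TATA box match that begins at base 44 after the start.
F3: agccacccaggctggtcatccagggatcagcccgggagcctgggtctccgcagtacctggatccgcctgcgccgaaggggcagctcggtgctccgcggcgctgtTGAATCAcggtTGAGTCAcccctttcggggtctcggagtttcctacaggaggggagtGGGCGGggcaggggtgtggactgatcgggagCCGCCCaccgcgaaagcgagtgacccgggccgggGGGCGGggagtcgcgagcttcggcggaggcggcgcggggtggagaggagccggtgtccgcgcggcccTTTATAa

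F10 (chromosome 8, 13087293 to 13106676, plus strand) encodes factor X, a plasma zymogen known mainly from liver. In these cells it was highest in monocyte-like cells at 257 ± 44.3 CPM (range 190 to 334). Neutrophil-like cells were next at 132 ± 129 CPM but ranged from 0 to 385 CPM, and 7 of 8 mice had more in monocytes. Dendritic cell-like and inflammatory macrophage-like cells held 19.3 ± 9.85 and 14.7 ± 4.23 CPM. Microglia had 0.0641 ± 0.0433 CPM, with 20 UMIs in 16967 cells. After thinning 39.1% of monocyte-like cells held an F10 UMI against 0.0118% of microglia-like cells, and 77.2% and 0.106% before thinning at median depths of 16466.5 and 15425 UMIs. The neutrophil values rested on 10 to 232 cells per mouse. Monocyte markers summed in the neutrophil-like cells to 435 to 1652 CPM under saline and 345 to 2276 CPM under ancrod, and their part in the F10 level of neutrophils was not tested.

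Between monocyte-like and inflammatory macrophage-like cells, which are related stages of infiltrating myeloid cells, the set split. F10 stood at 257 against 14.7 CPM, Plaur at 432 against 199 CPM and Thbd at 59.8 against 15.7 CPM, all without overlap, so these were higher in the monocytes. Plau was 111 against 59.6 CPM, higher in the monocytes in 8 of 8 mice with overlapping ranges. F13a1 and Serpine2 were higher in the macrophages, F13a1 in 8 of 8 mice with overlapping ranges and Serpine2 without overlap. These are descriptions of 2 classes, since the direction of a path between them was not measured.

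F13a1 (chromosome 13, 37051152 to 37234277, minus strand), the fibrin cross-linker, had the highest level of the set in any class. Border-associated macrophage-like cells (Mrc1, Cd163, Lyve1) held 1700 ± 239 CPM (range 1303 to 1989). Inflammatory macrophage-like cells had 558 ± 71.8 CPM, a separate 3.05-fold step below, and monocyte-like cells 367 ± 51.2 CPM. A further separate 17.1-fold step led to dendritic cell-like cells at 21.5 ± 14.6 CPM, and microglia-like cells held 2.78 ± 1.60 CPM. The share of thinned cells with a UMI was 82.9% in border-associated macrophage-like cells, 47.0% in inflammatory macrophage-like cells and 0.156% in endothelial-like cells, and 93.9%, 79.3% and 0.924% unthinned at median depths of 21507, 28896.5 and 10093 UMIs. By number, inflammatory macrophages contributed 55.8% of the 87940 F13a1 UMIs and border-associated macrophages 32.3%.

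The promoters of F13a1 and F10 are printed together as the pair of clotting factors whose transcripts were highest in myeloid cells. Each window printed held an ETS match, a motif found in 23.8% of all promoters, and neither held a match to the other 3 motifs. The window of Plaur, also highest in myeloid cells, held 0 ETS matches. The second RefSeq entry of F13a1, chr13:37049164-37049463 on the minus strand, had ETS matches beginning 35 bases upstream and at base 17 after the start, while its first entry had 0 matches to the 4 motifs. The F10 window, chr8:13037058-13037357 on the plus strand, had 1 match beginning 59 bases upstream.
F13a1: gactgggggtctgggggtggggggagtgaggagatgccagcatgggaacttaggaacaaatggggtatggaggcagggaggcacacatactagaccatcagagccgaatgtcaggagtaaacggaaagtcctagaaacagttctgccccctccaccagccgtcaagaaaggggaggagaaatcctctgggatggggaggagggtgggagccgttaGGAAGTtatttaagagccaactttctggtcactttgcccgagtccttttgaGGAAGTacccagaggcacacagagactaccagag
F10: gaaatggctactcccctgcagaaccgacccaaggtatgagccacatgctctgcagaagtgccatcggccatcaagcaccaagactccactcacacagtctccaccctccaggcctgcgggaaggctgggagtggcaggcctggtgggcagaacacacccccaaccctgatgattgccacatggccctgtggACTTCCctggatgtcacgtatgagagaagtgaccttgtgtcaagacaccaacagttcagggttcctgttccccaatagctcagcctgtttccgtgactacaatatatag

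Thbd (chromosome 2, 148216045 to 148250201, minus strand) was highest in endothelial-like cells at 124.5 ± 19.5 CPM, above fibroblast-like cells (73.6 ± 14.6 CPM) in 8 of 8 mice with a slight overlap of ranges. Monocyte-like cells had 59.8 ± 17.6 CPM and separated from pericyte-like cells at 27.2 ± 5.54 CPM. Thinned shares were 21.6% in endothelial-like cells against 0.0648% in microglia-like cells, and 65.2% and 0.566% unthinned at median depths of 10093 and 15425 UMIs. Arterial and capillary cells held 144 and 142 CPM, and venous and tip cells 116.5 and 115 CPM. An unnamed cluster of 365 cells led by Penk, Ccn3 and Ecrg4, which scored near fibroblast and choroid plexus markers alike, had more Thbd than any tested class. It held 285 CPM of Thbd, 540 CPM of F3 and 302 CPM of Plat over 7 mice.

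**Figure D3:**
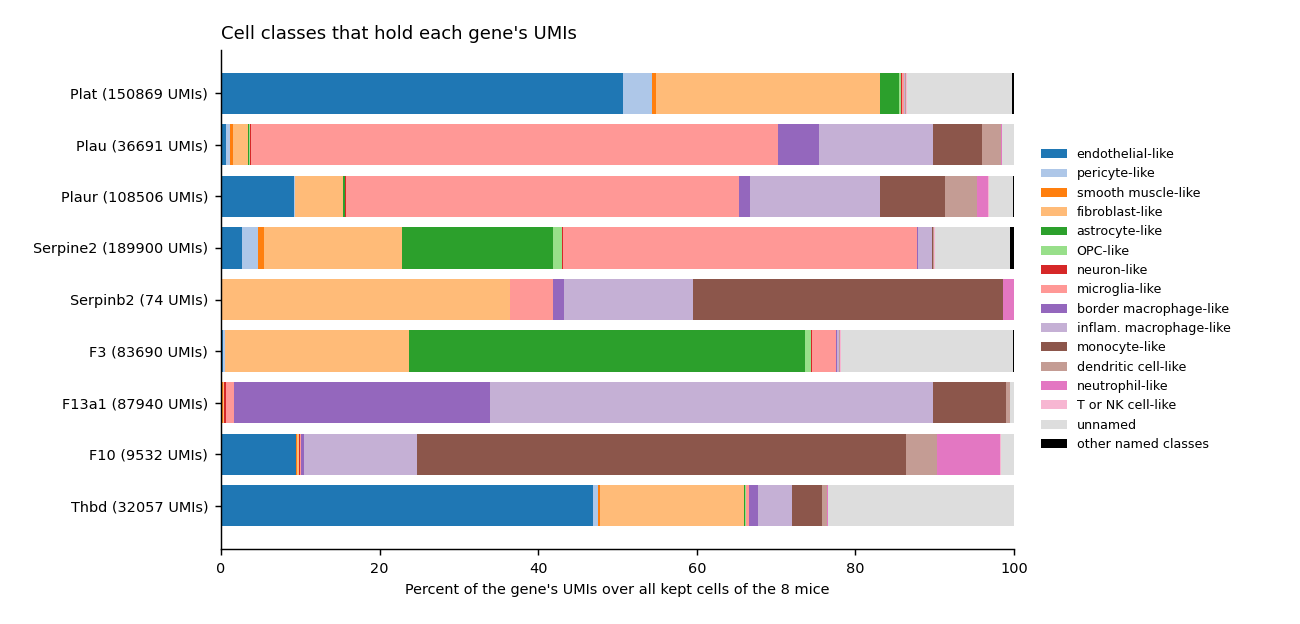
Share of each gene's UMIs, in percent of its UMIs in all kept cells of 8 mice, held by each cell class. Microglia hold 66.4% of Plau and 49.6% of Plaur, endothelium 50.7% of Plat and 46.9% of Thbd, astrocytes 50.0% of F3 and monocytes 61.6% of F10.

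Some other genes shared these class patterns. Over 14 classes and among 8524 genes with at least 50 CPM in a class, Plat levels were most like those of Akap12 (Pearson r = 0.988 of log2(mean CPM + 1)), Plaur like Fes (0.941) and Serpine2 like Tmem100 (0.915). F3 was most like Megf10 (0.966), a phagocytic receptor of astrocytes, and Dio2 (0.954). F13a1 was most like Pf4 (0.945), itself one of the markers that named the border-associated macrophages, F10 like Treml4 (0.932) and Thbd like Cgnl1 (0.861). The classes share libraries and the genes were picked for likeness, so these coefficients are descriptions.

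Several plasma proteins that the 9 gene products act on or with had few transcripts. Plg, the plasminogen that Plat and Plau cleave, gave 12 UMIs in all kept cells, Proc (protein C, the substrate that thrombomodulin serves) 20, and F2 (prothrombin) 143. The fibrinogen chains Fga, Fgb and Fgg gave 1, 158 and 33 UMIs. F7, the ligand of tissue factor, reached 20.3 ± 7.32 CPM in inflammatory macrophage-like cells, its highest class. Tfpi, the inhibitor of the tissue factor complex, was highest in pericyte-like cells at 257 ± 29.7 CPM. Lrp1, which clears activator and inhibitor complexes, stood at 422 ± 78.6 CPM in fibroblast-like and 419 CPM in monocyte-like cells.

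The comparison of ancrod with saline asks whether removing fibrinogen, the substrate of clotting, went with other levels of these genes. No gene of the set passed the test in any class. Of 69 tests (8 genes in the classes where each passed the low-count filter), 0 had an adjusted p under 0.05 in edgeR's quasi-likelihood test on UMIs summed per mouse and class, adjusted by Benjamini-Hochberg over all genes of the class. Over all genes 3 of 134560 tests were called (0.00223%), so few calls were made anywhere. DESeq2 called 547 (0.407%), of which 1 was a member. At an unadjusted p under 0.05 there were 13 of 69 tests (18.8%), 8 of them higher and 5 lower under ancrod, against 6.65% of all tests, and the set was chosen with earlier results of these data known. The groups did not overlap in 3 of the 69 tests (4.35%), beside 4.0% of all tests. The median log2 fold change of the 69 was 0.05, with 39 above and 30 below 0. The smallest adjusted p was 0.138. The comparison has 4 mice a group, and none of these results shows that the levels were equal.

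**Figure D4:**
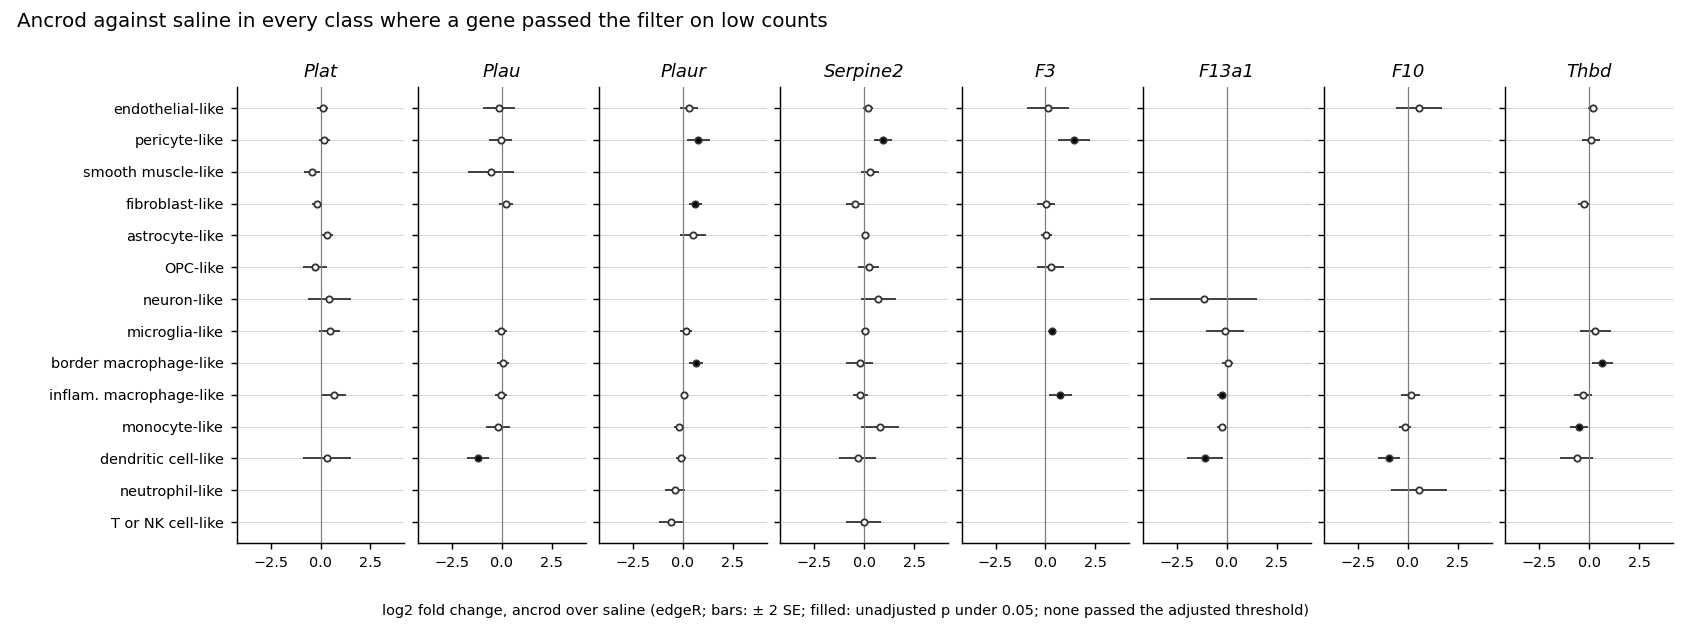
Log2 fold change, ancrod over saline, of each gene in each class where it was tested, with bars of 2 standard errors. Points lie on both sides of 0, and the widest departures from it are F3 in pericyte-like cells (1.42) and Plau in dendritic cell-like cells (-1.20), neither past the adjusted threshold.

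In the class where each of the 8 tested genes was highest, the saline and ancrod ranges overlapped. For Plat in pericyte-like cells the saline mice had 598, 706, 615 and 698 CPM and the ancrod mice 885, 718, 672 and 567 CPM. The groups overlapped on both sides, with a log2 fold change of 0.18 ± 0.14 (SE, n = 4 and 4, edgeR adjusted p = 0.742). Plat stood at 621 ± 65.5 against 671 ± 110 CPM in endothelial-like cells and 541 ± 91.0 against 468 ± 56.8 CPM in fibroblast-like cells, with adjusted p of 0.794 and 0.424.

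F3 in astrocyte-like cells was 873, 929, 704 and 780 CPM under saline and 905, 790.0, 972 and 722 CPM under ancrod. The log2 fold change was 0.05 with an interval of 2 SE from -0.21 to 0.30 (adjusted p = 0.999). F3 fold changes lay above 0 in 7 of 7 classes, largely where its level was low, and those in astrocyte-like, fibroblast-like and oligodendrocyte precursor-like cells, the 3 classes with the most F3, turned below 0 under other settings. In microglia-like cells F3 was 8.36, 7.55, 7.72 and 8.44 CPM under saline and 8.71, 9.74, 11 and 9.10 CPM under ancrod, without overlap, as for 1.98% of the genes tested in this class (0.30 ± 0.090, edgeR adjusted p = 0.949, unadjusted p = 0.00661). The free-RNA droplets held more F3, a mean of 126 CPM in saline and 138 CPM in ancrod libraries. The part of free RNA in the microglial values was not tested.

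F13a1 in border-associated macrophage-like cells was 1531, 1989, 1872 and 1303 CPM under saline and 1906, 1485, 1711 and 1800 CPM under ancrod, inside the saline range throughout (0.04 ± 0.14, adjusted p = 0.976). In inflammatory macrophage-like cells it was 598 ± 48.9 against 517 ± 72.5 CPM (-0.25 ± 0.11, unadjusted p = 0.0441, adjusted p = 0.999 in edgeR). Monocyte-like cells showed a like value, 394 ± 42.1 against 339 ± 48.1 CPM (adjusted p = 0.641). The difference between border-associated and inflammatory macrophages in log2(CPM + 1) was 1.74 under ancrod and 1.47 under saline, and its exact permutation p over 70 arrangements was 0.0571, two-sided (adjusted over 8 such comparisons, 0.343).

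Thbd was 118 ± 12.97 CPM under saline and 131 ± 24.4 CPM under ancrod in endothelial-like cells (0.17 ± 0.12, adjusted p = 0.689), and 81.6 ± 17.3 against 65.5 ± 5.17 CPM in fibroblast-like cells (-0.27 ± 0.14, adjusted p = 0.313). Its difference between these classes also did not pass (exact permutation p = 0.0857). In monocyte-like cells Thbd was 69.5, 60.2, 74.9 and 64.4 CPM under saline and 47.3, 35.9, 40.1 and 86.4 CPM under ancrod. The 3 ancrod mice of batch 1 lay below every saline mouse and the mouse of batch 2 above them all. The log2 difference was -0.72 within batch 1 and 0.42 in batch 2.

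Serpine2 in pericyte-like cells had the lowest unadjusted p of the set. Saline mice had 393, 303.5, 382 and 287 CPM, and ancrod mice 913, 592, 676 and 321 CPM. Ancrod mice 1 to 3 lay above every saline mouse and ancrod mouse 4 lay among them. The log2 fold change was 0.94 ± 0.23, with an edgeR adjusted p of 0.161 (unadjusted p = 0.000972). In this class 9.36% of genes had an unadjusted p under 0.05. Within batch 1 the log2 difference was 1.013 and in batch 2, with 1 mouse a group, 0.16. The adjusted p was 0.0436 with batch as a term and 0.0118 with the replicate number as a block. It was 0.0373 in batch 1 alone and 0.0136 without ancrod replicate 4. The fits in batch 1 alone and without ancrod replicate 4 left out ancrod mouse 4, which lay among the saline mice. The fits with the batch term and with the replicate block kept it. The other alternatives did not pass, DESeq2 among them. Over all alternatives, in edgeR or DESeq2, the adjusted p ran from 0.0118 to 0.994. Serpine2 fold changes lay above 0 in 8 of 13 classes and below 0 in 5. In astrocyte-like cells, its highest class, it was 708 ± 29.6 CPM under saline and 736 ± 58.8 CPM under ancrod (0.06 ± 0.095, edgeR adjusted p = 0.999). In fibroblast-like cells it was 498 ± 83.8 against 356 ± 117 CPM (-0.47 ± 0.22, edgeR adjusted p = 0.274, unadjusted p = 0.055).

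F3 and Plaur, both at low levels in pericyte-like cells, also had fold changes above 0 there. F3 was 9.65, 3.61, 10.9 and 12.02 CPM under saline and 27.3, 34.1, 13.9 and 9.73 CPM under ancrod, from 4 to 50 UMIs per mouse. Ancrod mice 1 to 3 lay above every saline mouse and ancrod mouse 4 among them, as for Serpine2 (1.42 ± 0.39, edgeR adjusted p = 0.216, unadjusted p = 0.00257). Plaur was 12.1, 7.23, 9.64 and 10.02 CPM under saline and 22.7, 14.99, 13.9 and 12.97 CPM under ancrod, from 8 to 22 UMIs per mouse and without overlap, as for 5.36% of the genes tested in this class. Its log2 fold change was 0.77 ± 0.30 (edgeR adjusted p = 0.410, unadjusted p = 0.020). The free-RNA droplets held F3 at a median of 143 CPM and Plaur at 99.6 CPM, above every pericyte value given here. The part of free RNA in these values was not tested.

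Fibroblast marker RNA and depth also differed between the groups in these cells. Fibroblast markers summed to 706 to 1050 CPM in the saline and 1160 to 1361 CPM in the ancrod pericyte-like cells, without overlap. All 8 markers were detected, chiefly Col1a2, Col3a1 and Dcn, while Lum and Pdgfra stayed between 0 and 6.03 CPM and between 0 and 1.21 CPM. Col1a1 was 15.4 to 40.99 CPM in 7 mice and 146 CPM in ancrod mouse 4. Ancrod mouse 4 had a marker sum of 1313 CPM, above every saline mouse, while its Serpine2 and F3 lay among theirs. Cells with no UMI of any of the 8 markers gave no usable comparison, since these 204 of 1146 cells had a median of 4268 UMIs against 5514 in the class and held 35 of its 3883 Serpine2 UMIs. In cells with no UMI of Col1a1, Pdgfra or Lum the log2 fold change of Serpine2 was 1.05 (adjusted p = 0.223). Both filters were chosen after the data were seen.

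Pericyte-like cells with over 10000 UMIs were 7.75% to 11% of the class in saline and 10.9% to 36.0% in ancrod mice, and held 68.2% to 86.4% and 79.8% to 88.8% of its Serpine2 UMIs. In these deep cells Serpine2 was 1407, 706, 1530 and 877 CPM under saline and 1297, 1116, 1646 and 772 CPM under ancrod. The group means were 1130 ± 400 and 1208 ± 364 CPM. In the remaining pericytes Serpine2 was 119, 137, 87.9 and 54.4 CPM under saline and 273, 150, 169 and 97.0 CPM under ancrod, and the groups overlapped. With every cell thinned to 2000 UMIs, which weighs all cells alike, saline mice ranged from 132 to 160 CPM and ancrod mice from 198 to 579 CPM. A second random thinning gave 150 to 232 and 223 to 523 CPM, with ancrod mouse 4 among the saline mice. The part of depth and of fibroblast RNA in these differences was not tested.

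Plaur in fibroblast-like cells had the smallest adjusted p of the set. Saline mice had 55.4, 75.4, 42.9 and 54.3 CPM and ancrod mice 90.5, 103, 70.5 and 90.7 CPM. Only the lowest ancrod mouse fell within the saline range. The log2 fold change was 0.62 ± 0.17 (edgeR adjusted p = 0.138, unadjusted p = 0.00375). In this class 19.0% of genes had an unadjusted p under 0.05. DESeq2 gave an adjusted p of 0.0242, the fit with the replicate block 0.027 and the fit without ancrod replicate 3 an adjusted p of 0.0468. Over all genes and classes these settings called 547, 300 and 356 tests, against 3 in the main fit. The other alternatives did not call Plaur here. Ancrod replicate 3 was the mouse within the saline range. The makeup of the class moved too, since a cluster led by Col1a2 and Mmp3 was 6.73% to 11.1% of the fibroblast-like cells in saline and 10.4% to 25.1% in ancrod mice. Within the Cemip-led cluster Plaur was 45.8 ± 8.09 against 63.4 ± 14.9 CPM, and within the Col1a1-led cluster 76.0 ± 27.5 against 105 ± 8.97 CPM. In the cluster led by Col1a2 and Mmp3 it was 67.6 ± 45.7 (n = 3 saline mice) against 98.3 ± 15.1 CPM. The ancrod mean was the higher in each of these, and the ranges overlapped in each. The part of the makeup was not tested.

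Plaur had a fold change above 0 in border-associated macrophage-like cells as well, at 66.8 ± 18.0 against 106 ± 13.97 CPM (0.65 ± 0.18, adjusted p = 0.516). In the classes where it was highest the fold changes lay below 0, at 458 ± 52.5 against 405 ± 25.6 CPM in monocyte-like cells (-0.22 ± 0.11, adjusted p = 0.655) and 432 ± 90.8 against 343 ± 35.2 CPM in neutrophil-like cells (adjusted p = 0.994). None of these passed.

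In dendritic cell-like cells Plau, F13a1 and F10 had fold changes below 0. Plau was 69.7, 57.6, 74.5 and 65.5 CPM under saline and 22.9, 15.7, 41.0 and 44.9 CPM under ancrod, without overlap, as for 2.96% of the genes tested in this class. The log2 fold change was -1.20 ± 0.28, and the edgeR adjusted p was 0.742 (unadjusted p = 0.00103). In this class 5.23% of genes had an unadjusted p under 0.05. F13a1 was 30.03 ± 16 against 12.99 ± 7.07 CPM (-1.09 ± 0.44, edgeR adjusted p = 0.913, unadjusted p = 0.030), with saline mouse 4, at 6.98 CPM, among the ancrod mice. F10 in the same cells was 25.8 ± 9.99 against 12.8 ± 3.87 CPM (-0.96 ± 0.27, edgeR adjusted p = 0.890, unadjusted p = 0.0045). With doublet-scored droplets kept, the log2 fold change of F10 was -0.43. A dendritic cluster led by Ccr7, Mreg and Strip2 kept 43 cells and lost 221 droplets to the doublet score. The class was chiefly a cluster led by H2-Ab1 (96.2% of its saline and 95.1% of its ancrod cells). That cluster had 0 dendritic markers among its leading genes. The part of the removed droplets in these values was not tested. In monocyte-like cells the log2 fold changes of Plau, F13a1 and F10 were -0.18, -0.26 and -0.17, that of Plau turning above 0 when some mice were left out, and the difference between the classes was not tested. Plau there was 114 ± 47.5 against 108 ± 41.7 CPM and F10 266 ± 61.6 against 247 ± 23.1 CPM, with adjusted p of 0.916 and 0.830.

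**Figure D5:**
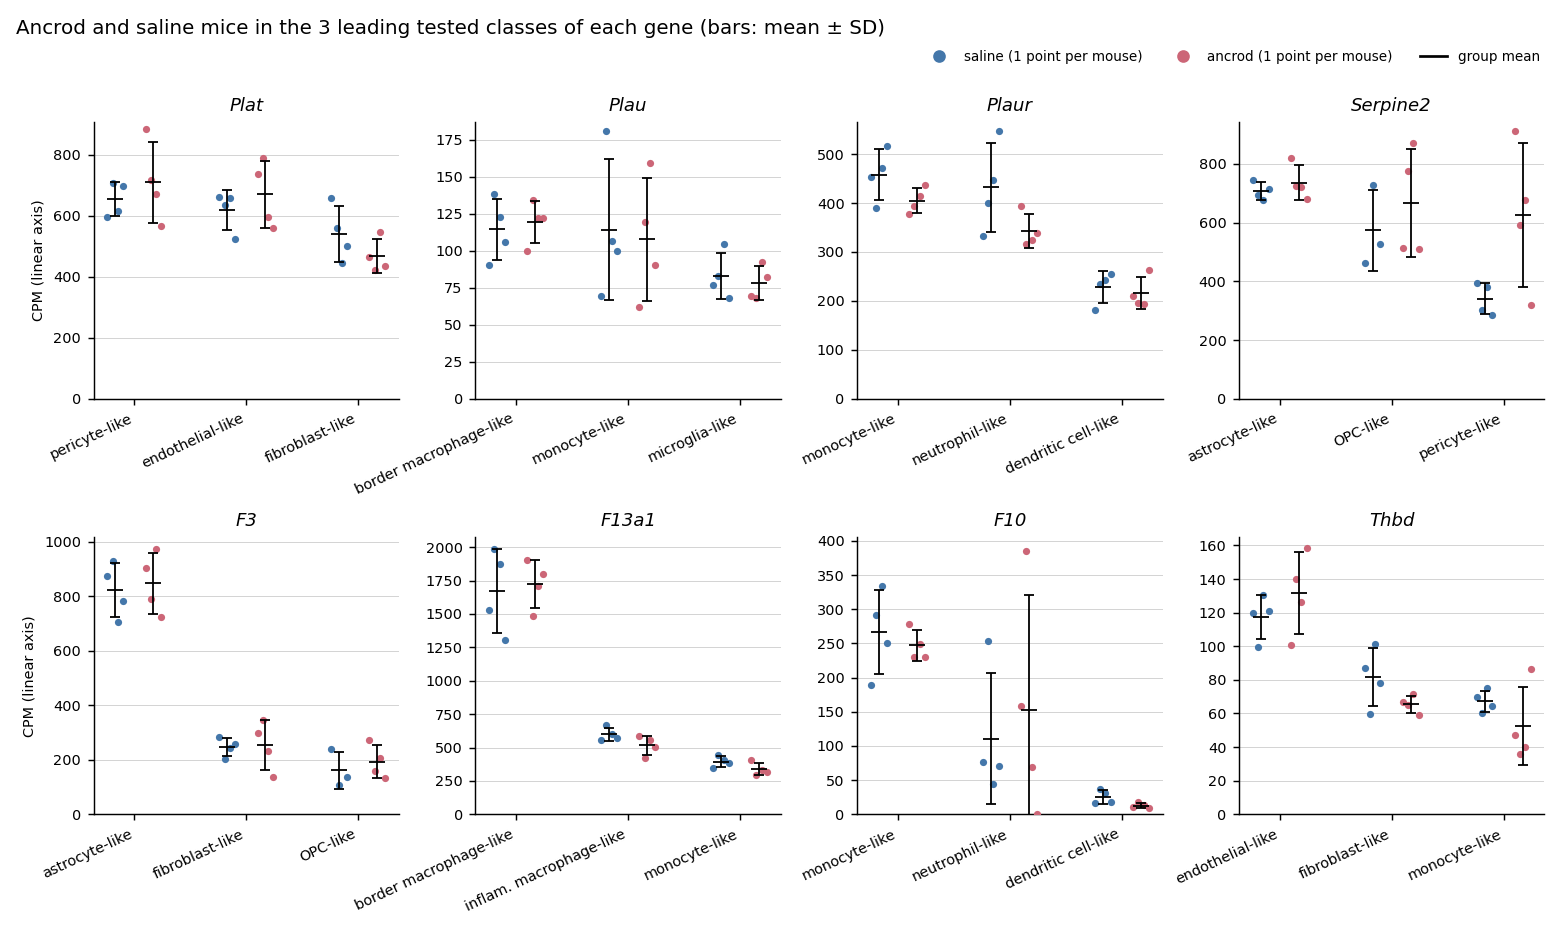
CPM per mouse (linear axis, saline blue, ancrod red) for 8 genes in the 3 tested classes where each was highest, with points for mice and bars for the mean ± SD of the mice shown. Saline and ancrod points of Serpine2 in pericyte-like cells overlap through ancrod mouse 4, at 321 CPM, and the error bar of F10 in neutrophil-like cells under ancrod is drawn only down to 0.

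None of the other pathway genes passed the test either. Of a list of 40 coagulation and fibrinolysis genes, 29 were tested in at least 1 class, in 190 tests. Of these, 0 rose and 0 fell at an adjusted p under 0.05, and 19 of the 190 had an unadjusted p under 0.05, 15 of them higher and 4 lower under ancrod, beside 6.65% of all tests. Endothelial-like, fibroblast-like and microglia-like cells had 22 listed genes tested each, with median log2 fold changes of 0.15, -0.06 and -0.0022.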

How the data were processed

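Single-cell suspensions from 8 mice were run with 10x 3′ v3.1 chemistry, 1 library per mouse. Per the labels and the submitters' processing notes, the authors made the deposited UMI counts with Cell Ranger 7.1.0 and STAR on GRCm39 (mm39), counting exonic and intronic reads, and deposited all droplets unfiltered. A matrix of UMI counts was used for every library, and the authors' cell annotation was not used. Droplets with at least 2000 UMIs and under 20% mitochondrial UMIs were kept, and a simulated-doublet score run per library removed the top scores, at 0.8% per 1000 droplets. Cells were clustered on 30 principal components of 3000 variable genes, leaving out the 49 pathway genes (leidenalg 0.10.2, resolution 2). Clusters were named from marker lists.

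UMIs were summed per mouse and class, using mice with at least 10 cells, and tested with edgeR 4.0.16 (R 4.3.3; filterByExpr, TMM, quasi-likelihood, Benjamini-Hochberg over all genes of a class, threshold 0.05), after tests on simulated data. Alternatives were DESeq2 1.42.0, other size factors, filters, a batch term, a replicate block and leaving out each mouse. Named results were the 3 classes with the highest mean of each gene (at least 10 CPM). Low-p results outside these were named after their values were seen. The members and lists were chosen with earlier results of these data known.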

Additional observations from a re-analysis of the deposited data

Results flagged for a closer look

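One value stood apart from its group. F10 in the neutrophil-like cells of saline mouse 2 was 253 CPM, while the other 3 saline mice had 43.8 to 76.7 CPM, and its gap to the nearest of them was 0.843 of the range of the group. The value rests on 71 UMIs in 51 cells, and ancrod mouse 2 had the highest F10 level of the other group, 385 CPM from 427 UMIs in 232 cells. Ancrod mouse 4 had 0 F10 UMIs in 23 cells, which allows up to 28.2 CPM. Of 48 groups examined 1 was singled out in this way, and chance alone marks about 1 in 20.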

How the results depend on the processing

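Over the 14 classes 3 genes were called in all. The count was 73 without the low-count filter, 547 with DESeq2, 5 with the legacy dispersion, 51 with a batch term, 24 with doublet-scored droplets kept and 21 in batch 1 alone, and 1 to 356 when a mouse was left out (lowest without saline replicate 1, highest without ancrod replicate 3). Calls within the set were 0, and became 1 with DESeq2, 1 with the batch term, 1 in batch 1 alone and 0 to 1 when a mouse was left out. The replicate block, with 300 calls and 2 within the set, is given although the shared numbers do not pair the mice: correlations of same-numbered mice ran from -0.59 to 0.25 over all kept cells and exceeded 0.1 in every pair only in oligodendrocyte precursor-like cells (0.21 to 0.31, 3 pairs). The calls within the set were Serpine2 in pericyte-like and Plaur in fibroblast-like cells.

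Of 24 named fold changes under 414 alternatives, 385 kept direction and side of the threshold, 25 turned direction and 4 gained a call. None of the turned values was called, and the cause was not tested. In batch 1 alone Plau and F13a1 in border-associated macrophage-like cells were -0.0046 and -0.081. With doublets kept, Plaur in dendritic cell-like cells was 0.052, Serpine2 and F3 in oligodendrocyte precursor-like cells -0.046 and -0.58, and F3 in fibroblast-like cells -0.026. F3 in fibroblast-like cells was -0.016 with the batch term and -0.019 with the block. Without cells holding a fibroblast marker UMI, a filter chosen after the data were seen, Plat and Serpine2 in pericyte-like cells were -0.41 and -0.77, from shallow cells with few Serpine2 UMIs and without ancrod mice 1 and 4, which had fewer than 10 such cells. Leaving out a mouse gave ranges from -0.042 to 0.15 for Plau in border-associated macrophage-like, -0.45 to 0.14 in monocyte-like and -0.15 to 0.093 in microglia-like cells, -0.021 to 0.11 for F3 in astrocyte-like and -0.15 to 0.23 in fibroblast-like cells, -0.051 to 0.14 for F13a1 in border-associated macrophage-like cells and -0.35 (without ancrod replicate 2) to 1.37 for F10 in neutrophil-like cells.

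Precision is limited by 4 mice a group, by 10 to 69 neutrophil-like cells per saline mouse, by the 30 fibroblast-like cells of saline mouse 3 and by batch 2 holding 1 mouse a group. Nothing in the labels separates mouse and library, so the spread includes both. Ancrod libraries held more UMIs in total, while the median UMIs per kept cell overlapped between the groups. At 5000 or more UMIs per droplet Plaur in neutrophil-like cells moved beyond 1 SD (470 CPM). With cells thinned, 6 of the 60 levels of at least 10 CPM did so: Serpine2 (648) and Plat (42.9) in astrocyte-like, Thbd in monocyte-like (85.2), Plaur in inflammatory macrophage-like (226) and Plau (17.2) and Plaur (8.22 CPM) in pericyte-like cells.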

Other observations

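Other pathway genes, named here after their values were seen, were also held by particular classes. Vwf, the platelet tether of endothelium, stood at 447 ± 62.3 CPM (SD, n = 8 mice) in endothelial-like cells and at 12.5 CPM in the next class. F5, the cofactor of factor X, was highest in neutrophil-like cells at 155 ± 62.4 CPM, with monocyte-like cells at 38.8 CPM. Pros1, the cofactor of protein C, reached 168 ± 13.1 CPM in microglia-like and 155 CPM in pericyte-like cells. Tfpi2 stood at 59.6 ± 10.1 CPM in fibroblast-like cells against 4.93 CPM in the next class. F2r, a thrombin receptor, had 70.2 ± 14.8 CPM in pericyte-like cells and 57.6 CPM in T or NK cell-like cells. Procr, the receptor of protein C, was 66.2 ± 62.2 CPM in vascular smooth muscle-like cells, with a range from 21.8 to 214 CPM, and 39.6 CPM in endothelial-like cells.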
